A study of Mus musculus with 4 samples.

Results

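The genes described here are the smooth muscle contractile apparatus and its regulators: the actins, myosins, tropomyosins, calponins and other filament proteins, the kinase and phosphatase that act on myosin, the serum response factor SRF with its cofactors, and several membrane and calcium genes typical of smooth muscle. They were taken from a list of 39 gene symbols, matched to probes through the RefSeq accession that the array gives for each probe, with Mkl1 matched through its current symbol Mrtfa. All 39 genes, of 18217 genes with a symbol on the array, had a probe. They had 62 of the array's 41174 probes, of which 52 were tested, and these covered 33 genes.

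The cells were microvascular smooth muscle cells of male C57BL6 mice from a Rap1a knockout model, grown in medium with 10% serum. Control cells received an empty Shuttle vector and the others a RapCA Shuttle vector, overnight in serum-free medium at plating, and both were then left for a recovery of 48 h with serum at 0.5%. By the labels, the Rap1a knockout background is shared by both groups. The labels spell out neither the name RapCA nor the promoter that drives it. RNA of each kind was paired on 4 two-colour arrays that are called biological replicates, without a statement that they came from separate cultures or animals, so the p-values may measure technical spread only. The empty vector was always in Cy5 and RapCA always in Cy3, so dye and condition cannot be told apart.

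In smooth muscle, calcium bound to calmodulin activates myosin light chain kinase, which phosphorylates the regulatory light chain and lets myosin pull on actin filaments. A myosin phosphatase with a targeting subunit reverses this step. Calponin, caldesmon, transgelin and tropomyosin lie along the thin filament, and most of the genes that encode these proteins are activated by SRF through a DNA element called the CArG box. Myocardin and the myocardin-related factor MRTF-A, the product of Mkl1, are cofactors of SRF, and MRTF-A enters the nucleus when actin polymerises. Cultured smooth muscle cells are known to lose much of this programme, with the heavy chain Myh11, smoothelin and desmin among the markers of the mature state.

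Boxes of the CArG type were looked for in RefSeq promoter windows of build GRCm38.p6, from 250 bases before to 50 bases after each annotated start. The pattern (the CArG box, 10 bases long) reads alike on both strands, and no other motif was searched. Of the 33 listed genes with a window, 6 held an exact box, or 18.2%, against 1.81% of 27025 genes in the table. When 1 departure from the pattern was allowed, the shares were 39.4% of the listed genes and 23.8% of all genes. Windows were at hand for 13 of the genes called higher below, of which 3 held an exact box, and for 14 measured genes without a call, of which 3 also did. No window was at hand for Actg2, Actb, Myh11, Tagln, Myocd and Aoc3, so the counts leave them out. Of these, Actg2, Tagln and Aoc3 were called higher. A match describes letters in the searched window only, and genes without a match are not shown to lack SRF binding. The stretches around these boxes are shown because the same element stands in genes that were called and in genes that were not called by their brightest probe. Capitals mark the box. The Myl6 box stands in 1 of that gene's annotated windows, and its other window held no exact box.
Acta1, called higher, box 73 bases before the start, minus strand, chr8:123894794-123894893: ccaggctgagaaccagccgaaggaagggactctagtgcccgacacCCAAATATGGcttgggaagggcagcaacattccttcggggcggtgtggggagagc
Myl9, called higher, box 161 bases before the start, plus strand, chr2:156775258-156775357: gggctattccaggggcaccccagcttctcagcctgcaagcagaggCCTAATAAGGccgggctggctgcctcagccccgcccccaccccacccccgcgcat
Cnn2, called higher, box 56 bases before the start, plus strand, chr10:79988499-79988598: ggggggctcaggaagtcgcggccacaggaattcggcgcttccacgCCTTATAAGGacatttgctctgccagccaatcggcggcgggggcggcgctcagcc
Actg1, not called by its brightest probe, box 90 bases before the start, minus strand, chr11:120348531-120348630: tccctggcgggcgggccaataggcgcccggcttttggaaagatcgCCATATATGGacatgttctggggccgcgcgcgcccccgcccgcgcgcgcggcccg
Myl6, not called, box 50 bases before the start, minus strand, chr10:128493010-128493104: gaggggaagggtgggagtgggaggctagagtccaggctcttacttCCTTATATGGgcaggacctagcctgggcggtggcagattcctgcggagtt
Srf, not called, boxes 82 and 62 bases before the start, minus strand, chr17:46556170-46556289: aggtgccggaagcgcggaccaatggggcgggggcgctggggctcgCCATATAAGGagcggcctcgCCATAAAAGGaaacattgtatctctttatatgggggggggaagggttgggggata

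The arrays had limits that bear on every value below. Replicate 1 stood apart: across probes, its log2 ratios had a correlation of 0.69 to 0.78 with the remaining arrays, where replicates 2 to 4 reached 0.93 to 0.98 among themselves, and 51.6% of its spots were well above background in Cy5 against 60.3% to 62.1% on the others. The probe for Rap1a itself was lower in the RapCA-labelled channel, with a mean of -1.06 ± 0.44 on the log2 scale (SD over 4 arrays; adjusted p = 0.00204, limma). Its mean level was 11.7 there and 12.7 in the vector-labelled channel, so the signal was well above background in both and does not show the deletion. The direction goes against a label read as added Rap1. Whether the probe lies in the deleted part is not known here, and a probe outside it checks nothing. Directions therefore follow the dye labels, and a positive ratio means more signal in the Cy3 channel labelled RapCA than in the Cy5 channel labelled vector. All ratios are on the log2 scale after background correction and intensity-dependent normalization, levels are log2 signals of a channel, and a call is an adjusted p under 0.05 over all 23497 probes tested.

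Of the 33 contractile genes tested, the RapCA-labelled channel was higher for 16 and lower for 1, by the brightest tested probe of each gene. That is 48.5% higher, where 28.9% of all 12388 genes tested were, and 3.03% lower, where 24.9% of all genes were. Called genes in either direction made up 51.5%, close to the 53.9% of all genes. The median ratio was 0.32 over the contractile genes and 0.019 over all genes. On replicates 1 to 4 the contractile median stood at 0.47, 0.29, 0.37 and 0.27. A change of at least 2-fold was called higher for 8 of the 33 genes (9.16% of all genes) and lower for none (7.47% of all genes). Those 8 were Aoc3, Tagln, Csrp1, Mylk, Myl9, Tpm1, Lmod1 and Cnn2.

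The channels of the 4 arrays did not overlap for 13 of the 33 genes, all of them with the RapCA-labelled channel higher (24.7% of all genes). For no contractile gene was every RapCA level below every vector level (20.7% of all genes). The filter on dim probes was passed through the RapCA-labelled channel alone by 2 of the 33 genes, Ppp1r12b and Ppp1r14a, and neither was called. The ratio was above 0 on all arrays for 18 of the 33 genes (33.4% of all genes) and below 0 on all arrays for Ppp1r12a alone (29.4% of all genes). Over the 52 tested probes of these genes, 30 were called higher (26.4% of all probes tested) and 2 lower (23.2%), with 49.6% of all probes called either way. Among the higher calls, a dimmer probe of Tpm1 and a dimmer probe of Itga8 passed the filter through the RapCA-labelled channel alone. Without replicate 1 the counts of genes were 19 higher and 3 lower, where 37.1% and 34.0% of all genes were. With each array centred on its median in place of the intensity-dependent fit, they were 8 higher and 2 lower, where 12.4% and 20.0% of all genes were, and the contractile median was 0.034. That setting also moved the median of all genes from 0.019 to -0.17 and the share of called probes that were higher from 53.3% to 40.1%. Among the 1030 genes with a mean level of at least 14, the median ratio was 0.00036 in the first analysis and -0.57 with median centring. The first value is set near 0 by the intensity-dependent fit itself, so it cannot show which setting is right. The 16 contractile genes at that level had medians of 0.46 and -0.30. Of the contractile genes 48.5% lay in that bright range, against 8.31% of all genes tested.

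**Figure D1:**
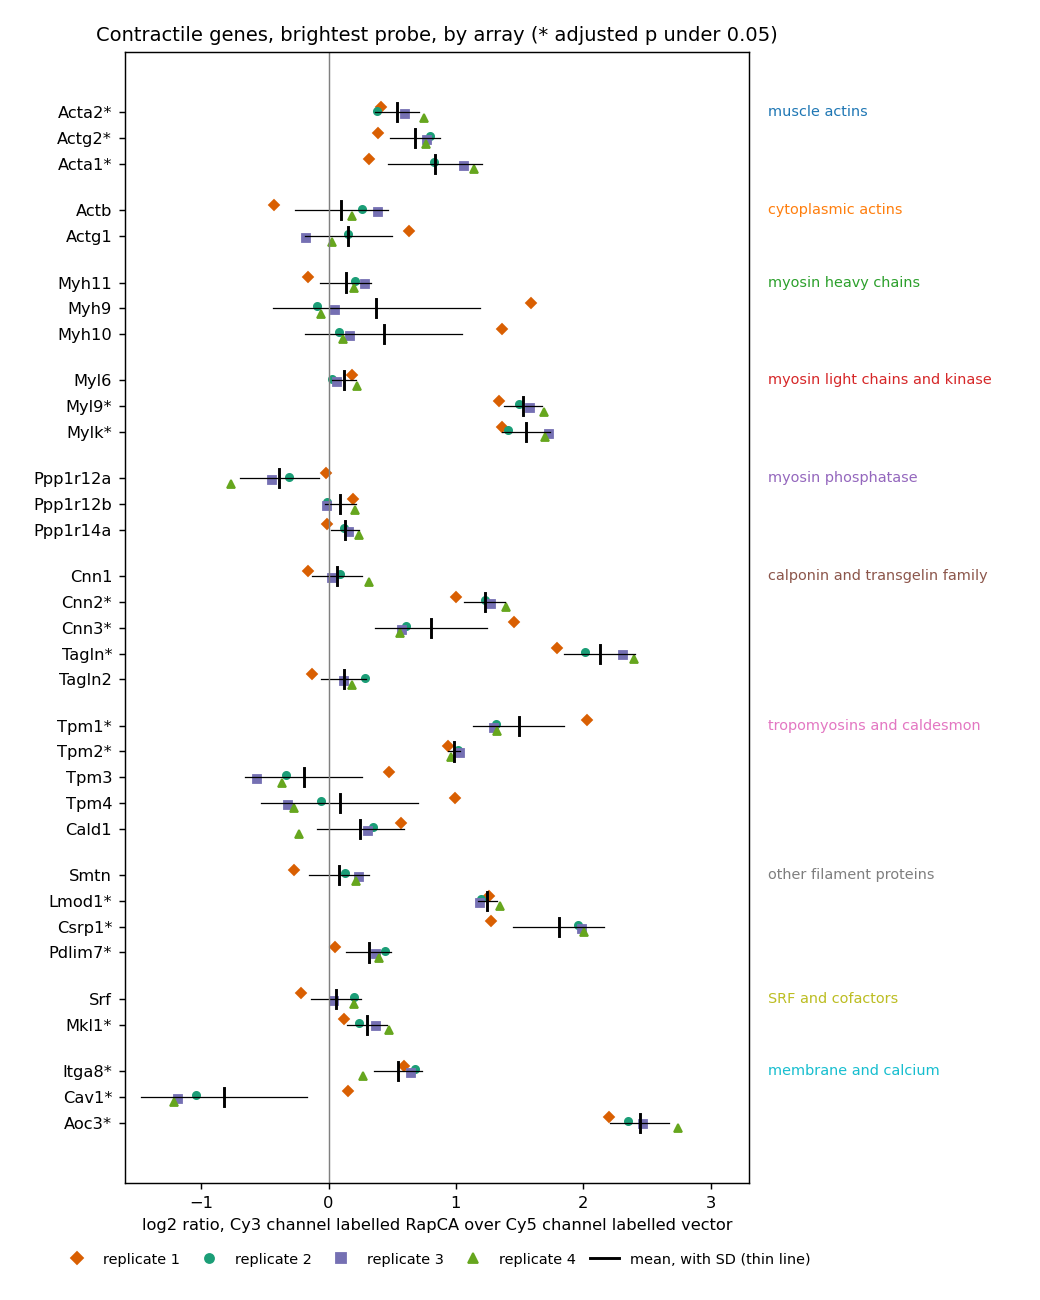
Log2 ratio of the RapCA-labelled channel over the vector-labelled channel (horizontal axis) for the brightest tested probe of 33 contractile genes grouped by role (vertical axis). Coloured points are the 4 arrays, black ticks the mean and thin lines the SD; Tagln and Aoc3 lie at 1.79 to 2.75 on every array, while Myh9 and Tpm4 are high on replicate 1 alone.

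The labelled cell type was checked by its defining genes. Acta2, Tagln, Cnn1 and Myh11 were above background on every array in both channels, while the mature markers Des and Myocd were above it on none. Myh11 was near background even so, at levels of 6.38 to 6.75, where Des reached 6.24 and Myocd 6.36. Markers of other cells of the vessel wall also differed between the channels. Of 10 pericyte markers 6 were tested, with 5 higher and 1 lower, and of 10 fibroblast markers 8 were tested, with 6 higher and none lower. Over all genes tested, 28.9% were called higher and 24.9% lower. Among the fibroblast rises, Col14a1 was above background on no vector-labelled channel. The pericyte marker called lower, Kcnj8, was above background on only 3 RapCA-labelled channels. The summed level of the pericyte list was 14.9 to 15.2 in the RapCA-labelled channel and 13.3 to 13.8 in the vector-labelled channel. For the fibroblast list it was 15.8 to 16.0 and 13.3 to 13.7. Dcn, a matrix proteoglycan, had a ratio of 3.88 ± 0.19, and Notch3, a receptor of mural cells, had 2.79 ± 0.50. The pericyte markers Rgs5, Abcc9, Higd1b and Vtn and the fibroblast markers Lum and Tcf21 were above background on no array. The part of these lists in the contractile ratios was not tested. In cultured cells measured in bulk, a change in the number of cells of a type and a change in RNA per cell cannot be told apart. Of endothelial markers, Pecam1, Cdh5, Emcn and Tie1 were above background on no array, and so were Ptprc, Adgre1, Itgam, Mrc1 and C1qa of the macrophage list and Epcam, Cdh1, Cldn4 and Esrp1 of the epithelial list. These lists were not absent, since Vwf, Kdr and Egfl7, Cd14, C1qb and Csf1r, and Krt19 and Krt14 were above background on every array in both channels. Vwf, the clotting factor carrier of endothelium, was lower at -2.03 ± 0.16 (adjusted p = 2.66e-05). The endothelial list had no common direction. Kdr was also called lower at -0.75 ± 0.40, while Tek and Egfl7 were called higher at 1.16 ± 0.23 and 0.57 ± 0.50. Of 5, 4 and 5 genes tested in these 3 lists, 2, 1 and 1 were called higher (28.9% of all genes) and 2, 0 and 2 lower (24.9%). Several of these calls passed the filter only through the channel where the gene was higher. Tek, Lyz2 and Cldn7 did so through the RapCA-labelled channel and Krt8 through the vector-labelled channel.

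The muscle actins were all higher in the RapCA-labelled channel. Acta2, the smooth muscle alpha actin that is the usual marker of this lineage, had ratios of 0.41, 0.38, 0.60 and 0.75 on replicates 1 to 4. Its RapCA levels of 17.11 to 17.22 lay above all vector levels of 16.44 to 16.84. The mean was 0.54 ± 0.17 (n = 4; limma adjusted p = 0.00555), a 1.45-fold difference. A second Acta2 probe gave 0.56 ± 0.095 (adjusted p = 0.00285) and another gave 1.23 ± 0.13 (adjusted p = 0.000121), so the probes agreed in direction and differed in size. The brightest probe turned to -0.24 with median centring, where it was not called (adjusted p = 0.215).

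Actg2, the enteric gamma actin of visceral smooth muscle, had ratios of 0.39, 0.80, 0.77 and 0.76 and a mean of 0.68 ± 0.20 (adjusted p = 0.00228). With median centring its call was lost at 0.18 (adjusted p = 0.260). Acta1, the skeletal muscle alpha actin, had 0.32, 0.83, 1.06 and 1.14, with a mean of 0.84 ± 0.37 (adjusted p = 0.0035). In both genes replicate 1 was the lowest and the channels did not overlap. Coding sequences of actins are alike, and the files hold no probe sequences, so signal shared between actin genes was not examined.

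The cytoplasmic actins differed less between the channels than the spread over arrays. Actb, the beta actin of the cell cortex, had -0.43, 0.26, 0.39 and 0.19, a mean of 0.10 ± 0.36 (adjusted p = 0.606), and overlapping channels. Without replicate 1 it was called higher at 0.28 (adjusted p = 0.0169). Actg1, the gamma cytoplasmic actin, had 0.63, 0.15, -0.18 and 0.024 with a mean of 0.16 ± 0.34 (adjusted p = 0.406). Its other probe was called higher at 0.48 ± 0.23 (adjusted p = 0.0131), with 0.77, 0.53, 0.35 and 0.26 on the 4 arrays. The promoter box of Actg1 shown above therefore stands beside probes that did not give the same call.

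None of the myosin heavy chain genes was called. Myh11, the heavy chain that defines mature smooth muscle, had levels of 6.59 to 6.67 in the RapCA-labelled channel and 6.38 to 6.75 in the vector-labelled channel, both above background on all arrays. Its ratios were -0.16, 0.21, 0.29 and 0.20, a mean of 0.13 ± 0.20 (adjusted p = 0.361), and without replicate 1 it was called at 0.23 (adjusted p = 0.0251). Myh9, the non-muscle heavy chain IIA, had 1.59 on replicate 1 and -0.087, 0.053 and -0.060 on the others. Its mean of 0.37 ± 0.81 (adjusted p = 0.304) therefore rests on replicate 1, and without that array it was -0.031. Myh10, the heavy chain IIB, showed the same split, with 1.36 on replicate 1 and 0.082, 0.17 and 0.12 on the others, and its mean was 0.43 ± 0.62 (adjusted p = 0.146). A second Myh10 probe gave 0.85, -0.070, 0.044 and -0.27.

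Myosin light chain genes and the kinase separated into a group with large ratios and a gene without. Myl9, the regulatory light chain of smooth muscle that the kinase phosphorylates, had 1.34, 1.49, 1.58 and 1.69. Its RapCA levels of 16.85 to 16.99 lay above all vector levels of 15.28 to 15.51, and the mean was 1.53 ± 0.15 (adjusted p = 6.16e-05), a 2.88-fold difference. Mylk, the myosin light chain kinase, had 1.36, 1.41, 1.73 and 1.70 with a mean of 1.55 ± 0.19 (adjusted p = 7.3e-05). Its RapCA levels ran from 9.43 to 9.79 and its vector levels from 7.75 to 8.42, with no overlap. A second Mylk probe gave 1.37 ± 0.17. Myl6, the essential light chain present in most cells, had 0.18, 0.025, 0.063 and 0.22 with a mean of 0.12 ± 0.094 (adjusted p = 0.333), and its second probe had -0.24 ± 0.073 (adjusted p = 0.0706), so its probes lay on opposite sides of 0 and neither was called. The first Myl6 probe was called lower at -0.72 with median centring (adjusted p = 0.0177) and higher at 0.46 when the ratios of the scanner software were used (adjusted p = 0.0311).

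No gene of the myosin phosphatase was called. Ppp1r12a, the targeting subunit MYPT1, had -0.020, -0.31, -0.45 and -0.76, all below 0, with a mean of -0.39 ± 0.31 that missed the threshold narrowly (adjusted p = 0.05003). Without replicate 1 it was called at -0.51 (adjusted p = 0.00456). Ppp1r12b, the related subunit MYPT2, had 0.19, -0.015, -0.010 and 0.20 with a mean of 0.093 ± 0.12 (adjusted p = 0.478). Ppp1r14a, the inhibitor CPI-17 that keeps the phosphatase off, had -0.015, 0.12, 0.16 and 0.24 with a mean of 0.13 ± 0.11 (adjusted p = 0.321). It was above background on all arrays in the RapCA-labelled channel and on none in the other, but its levels overlapped, at 6.33 to 6.54 and 6.17 to 6.56. With the scanner software's ratios, Ppp1r14a was called at 1.18 (adjusted p = 0.00595).

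The calponin and transgelin family held the largest ratio of the filament proteins. Tagln, transgelin or SM22-alpha, an actin-binding protein and early marker of smooth muscle, had 1.79, 2.02, 2.31 and 2.40. Its RapCA levels of 17.02 to 17.22 lay far above its vector levels of 14.78 to 15.22, and the mean was 2.13 ± 0.28 (adjusted p = 4.29e-05), a 4.37-fold difference. The second Tagln probe gave 2.02, 2.43, 2.58 and 2.62, with a mean of 2.41 ± 0.27 (adjusted p = 2.78e-05). Tagln2, the form made in many cell types, had -0.13, 0.29, 0.12 and 0.19 with a mean of 0.12 ± 0.18 (adjusted p = 0.403).

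Calponins ran the other way round, with the smooth muscle form the flat member. Cnn1, calponin h1 of differentiated smooth muscle, had -0.16, 0.086, 0.029 and 0.32 with a mean of 0.068 ± 0.20 (adjusted p = 0.644), and its channels overlapped at 14.64 to 15.05 and 14.35 to 15.21. Cnn2, the calponin of many motile cells, had 1.00, 1.23, 1.28 and 1.39 with a mean of 1.23 ± 0.16 (adjusted p = 0.000148), and its channels did not overlap. Cnn3, the acidic calponin, had 1.46 on replicate 1 and 0.61, 0.58 and 0.56 on the others. Its mean was 0.80 ± 0.44 (adjusted p = 0.00688), and 0.58 without replicate 1 (adjusted p = 0.000438), but 0.32 with median centring, where it was not called (adjusted p = 0.479).

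Tropomyosins stabilise actin filaments and block or admit myosin. Tpm1 had ratios of 2.03, 1.32, 1.30 and 1.32 on its brightest probe, with a mean of 1.49 ± 0.36 (adjusted p = 0.00026) and channels that did not overlap. Its call was lost with median centring (0.95, adjusted p = 0.0556). A second probe for the same transcript record, NM_024427, gave 1.57 ± 0.19 (adjusted p = 7.1e-05). Probes for other transcript records of Tpm1 gave smaller ratios: 0.27 ± 0.23 for NM_001164248 (adjusted p = 0.0967) and 0.32 ± 0.11 for NM_001164255 (adjusted p = 0.0324). The last of these Tpm1 probes was above background on only 3 vector-labelled channels, so it passed the filter through the RapCA-labelled channel alone. This gene is known to be spliced differently in muscle and other cells, and which exons each probe meets is not known here.

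Tpm2, the beta tropomyosin of smooth muscle, had the smallest spread of the called genes, with 0.94, 1.02, 1.03 and 0.96, a mean of 0.99 ± 0.046 (adjusted p = 0.000216), and a second probe at 0.79 ± 0.077. With median centring it stood at 0.47 and was not called (adjusted p = 0.0617). Tpm3 and Tpm4, the forms found in most cells, were not called and were high on replicate 1 alone. Tpm3 had 0.47, -0.33, -0.56 and -0.36 with a mean of -0.20 ± 0.46 (adjusted p = 0.389), and without replicate 1 it was called lower at -0.42 (adjusted p = 0.00357). Its other probe was called higher at 0.53 ± 0.31 (adjusted p = 0.0153), so probes for Tpm3 do not give a common direction. Tpm4 had 0.99, -0.059, -0.32 and -0.27 with a mean of 0.086 ± 0.61 (adjusted p = 0.770). Cald1, caldesmon, which restrains myosin on actin, had 0.57, 0.35, 0.31 and -0.23 on its brightest probe (mean 0.25 ± 0.34, adjusted p = 0.190). Its second probe was called at 1.08 ± 0.29 (adjusted p = 0.000609).

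**Figure D2:**
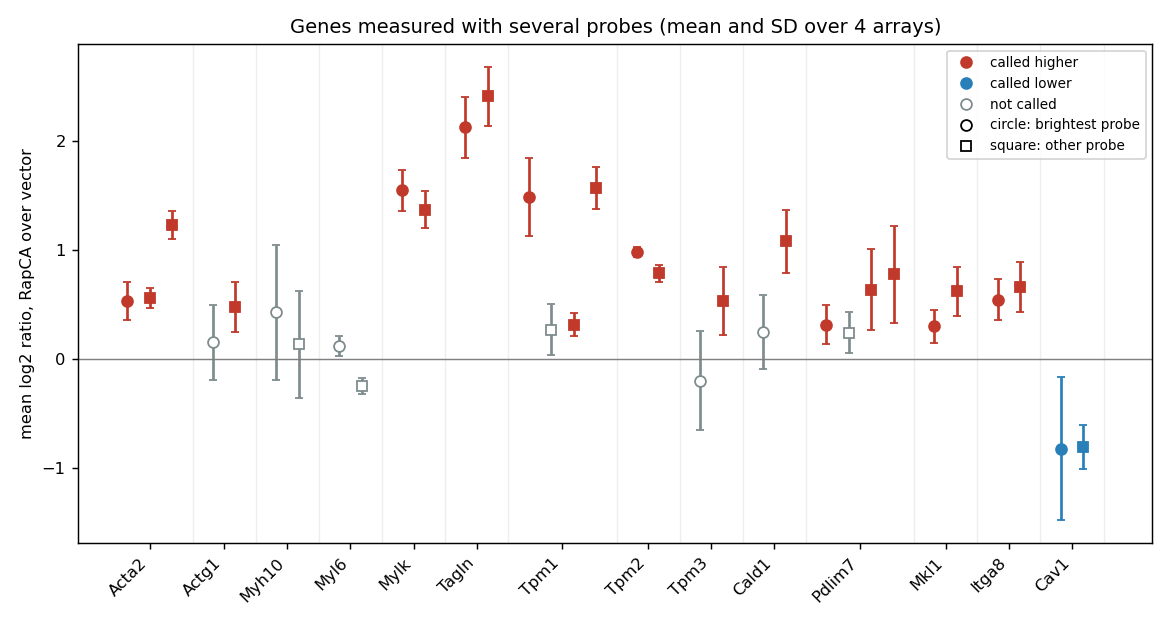
Mean log2 ratio and SD over 4 arrays (vertical axis) for each tested probe of the 14 contractile genes with more than 1 tested probe (horizontal axis), with circles for the brightest probe. All tested probes share a call in 9 genes, and calls differ among probes in Actg1, Tpm1, Tpm3, Cald1 and Pdlim7; 2 probes of Tpm1 lie at 1.49 and 1.57 and the other 2 at 0.27 and 0.32.

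Among the other filament proteins, Csrp1, a LIM domain protein that bundles actin, had the largest ratio. Its values were 1.27, 1.96, 1.99 and 2.00, lowest on replicate 1, with a mean of 1.81 ± 0.36 (adjusted p = 0.000119), a 3.5-fold difference. Lmod1, leiomodin, which nucleates actin filaments in smooth muscle, had 1.26, 1.20, 1.19 and 1.34 with a mean of 1.25 ± 0.072 (adjusted p = 9.19e-05). Both genes had channels that did not overlap. Smtn, smoothelin, a marker of contractile cells, had -0.27, 0.13, 0.24 and 0.22 with a mean of 0.079 ± 0.24 (adjusted p = 0.614), and without replicate 1 it was called at 0.20 (adjusted p = 0.0477). Pdlim7, a PDZ and LIM scaffold of actin cables, had 0.052, 0.44, 0.37 and 0.39 with a mean of 0.32 ± 0.18 (adjusted p = 0.046). Leaving out replicate 2, 3 or 4 ended that call (adjusted p = 0.227, 0.198 and 0.130). Of its other 3 probes, 2 were called at 0.64 ± 0.37 and 0.78 ± 0.45.

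Des and Synpo2 were above background on no array in either channel and were not tested. Desmin, the muscle intermediate filament protein, and synaptopodin-2, an actin-bundling protein of smooth muscle, had levels of 6.13 to 6.22 and 6.03 to 6.12 in the RapCA-labelled channel. Values of 6.0 to 6.24 and 5.97 to 6.24 stood in the vector-labelled channel, so nothing can be said of their direction.

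Of the 3 contractile list genes for SRF and its cofactors, only Mkl1 was called. The related cofactor Mrtfb, from the list of regulators below, was called lower at -0.65 ± 0.25 (adjusted p = 0.00437). It is named here after its value was seen. Srf had -0.21, 0.20, 0.040 and 0.20 with a mean of 0.057 ± 0.20 (adjusted p = 0.70) and overlapping channels. Mkl1 had 0.12, 0.24, 0.37 and 0.48 on its brightest probe, with a mean of 0.30 ± 0.15 (adjusted p = 0.0471), and 0.62 ± 0.23 on the other (adjusted p = 0.00425). The call of the first was lost without replicate 2, 3 or 4 (adjusted p = 0.155, 0.215 and 0.151), and with median centring the probe stood at -0.15. Myocd, myocardin, the cofactor that drives the smooth muscle programme in vivo, was above background on no array by either of its 2 probes, with levels between 5.78 and 6.36 in both channels.

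The membrane and calcium genes held both the largest rise and the only fall. Aoc3, a copper amine oxidase on the surface of smooth muscle, had 2.20, 2.35, 2.47 and 2.75. Its RapCA levels of 9.14 to 9.69 lay above its vector levels of 6.73 to 7.49, and the mean was 2.44 ± 0.23 (adjusted p = 2.27e-05), a 5.44-fold difference on a scale to which the background correction added an offset of 50. With the scanner software's ratios it was 3.37. Itga8, the integrin alpha 8 chain of contractile cells, had 0.60, 0.68, 0.65 and 0.27 with a mean of 0.55 ± 0.19 (adjusted p = 0.00563). A second probe stood at 0.66 ± 0.23, but was above background on only 3 vector-labelled channels. It passed the filter through the RapCA-labelled channel alone. A further Itga8 probe was above background on no array and was not tested. By its brightest probe Itga8 was not called with median centring (0.39, adjusted p = 0.145).

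Cav1, caveolin-1, which shapes the membrane pits of smooth muscle, was lower. Its brightest probe had 0.15 on replicate 1 and -1.04, -1.18 and -1.22 on the others, with a mean of -0.82 ± 0.65 (adjusted p = 0.0221). Without replicate 1 the mean was -1.15 (adjusted p = 4.08e-05), and without replicate 2, 3 or 4 the call was lost (adjusted p = 0.0793, 0.0791 and 0.0952). The second Cav1 probe was below 0 on all arrays, with -0.63, -0.69, -0.82 and -1.08, a mean of -0.81 ± 0.20 (adjusted p = 0.00111), and channels that did not overlap. Pln, phospholamban of the calcium store, and Kcnmb1, the beta 1 subunit of the large calcium-activated potassium channel, were above background on no array. Casq2, the calcium store protein calsequestrin 2, was above background on 3 arrays in the vector-labelled channel and on none in the other, and was not tested.

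**Figure D3:**
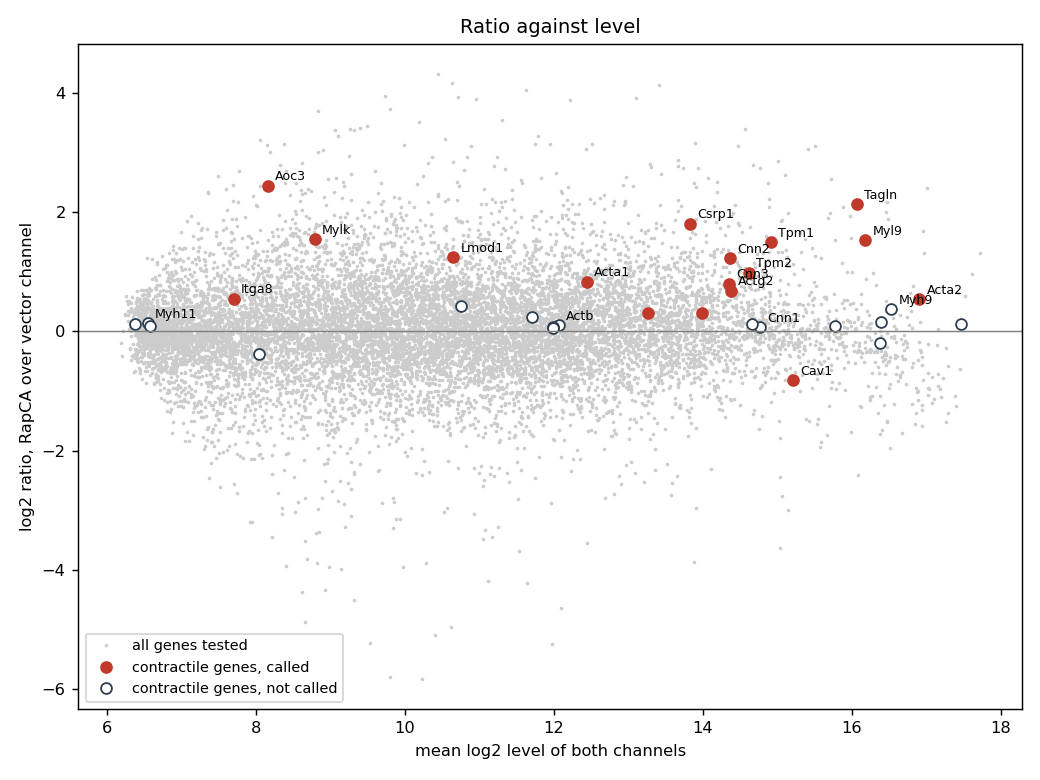
Log2 ratio (vertical axis) against the mean log2 level of both channels (horizontal axis) for 12388 genes tested (grey) and the 33 contractile genes, filled red where called and open where not. The called genes run from Aoc3 and Itga8 at low level to Tagln, Myl9 and Acta2 at high level, and Cav1 is the only called gene below 0.

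Pairs of a gene placed as the smooth muscle form and a relative placed as more widely expressed were compared by the difference of their ratios on each array. With 4 arrays the exact two-sided sign-flip permutation test cannot give a p under about 0.13, so no pair could pass a threshold of 0.05. Tagln exceeded Tagln2 on 4 of 4 arrays by 2.01 ± 0.23 (exact adjusted p = 0.20), with differences of 1.92, 1.73, 2.19 and 2.21. Acta2 exceeded Actb on 4 of 4 arrays by 0.44 ± 0.33 (exact adjusted p = 0.20), but this turned to -0.077 with median centring. Ppp1r12b, placed as the smooth muscle form, exceeded Ppp1r12a on 4 of 4 arrays by 0.48 ± 0.34 (exact adjusted p = 0.20). That placement was not tested. Ppp1r12a is itself the targeting subunit MYPT1, so this pair does not show a smooth muscle form ahead. Ppp1r12b was also above background on only 3 vector-labelled channels. With both channels required above background that pair dropped out, and the smooth muscle form was ahead on every array in 2 of 7 pairs.

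Calponin was the family in which the smooth muscle form trailed on every array. Cnn1 stood below Cnn2 by -1.16 ± 0.073, with -1.16, -1.14, -1.25 and -1.07 (exact adjusted p = 0.20), and below Cnn3 by -0.73 ± 0.61 (exact adjusted p = 0.20). The Cnn1 and Cnn2 difference had the smallest spread of the 8 pairs, and it was -1.21 with median centring. In the other 3 pairs replicate 1 pointed away from the rest. Actg2 minus Actg1 was -0.24 on replicate 1 and 0.65 to 0.96 on the others (mean 0.52 ± 0.53, exact adjusted p = 0.286). Tpm2 minus Tpm4 was -0.055 against 1.08 to 1.35 (mean 0.90 ± 0.65, exact adjusted p = 0.286), and Myh11 minus Myh9 was -1.75 against 0.24 to 0.30 (mean -0.24 ± 1.01, exact adjusted p = 1). Without replicate 1, 6 of the 8 pairs had the smooth muscle form ahead on every array left, against 3 of 8 with all arrays. The dim pair of Ppp1r12b and Ppp1r12a, whose placement was not tested, is among both counts.

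**Figure D4:**
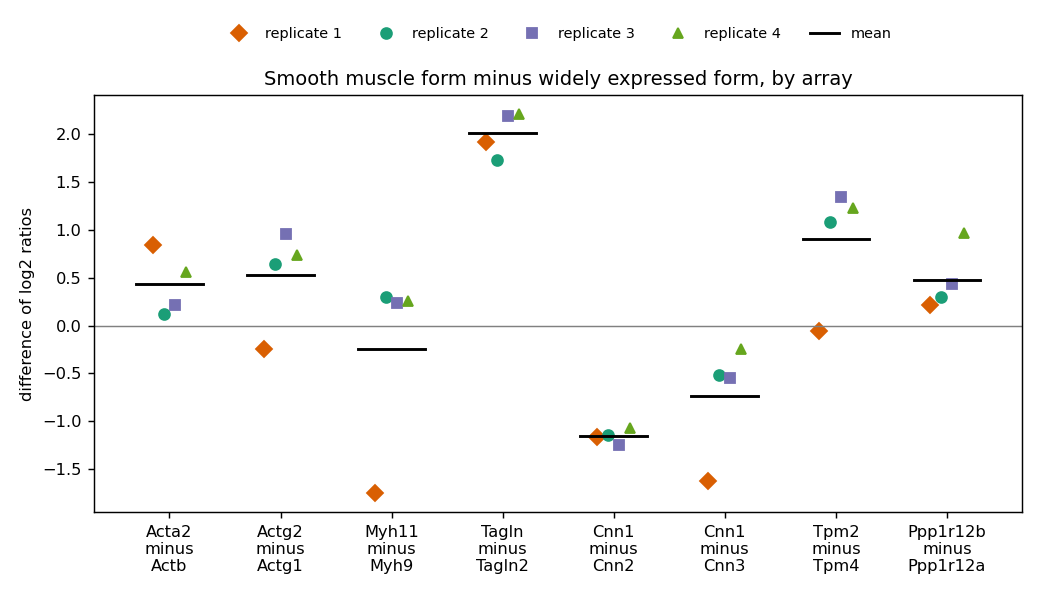
Difference of the log2 ratios of 2 genes on each array (vertical axis) for 8 pairs (horizontal axis), with the mean as a black line. Each pair sets a gene placed as the smooth muscle form against a relative placed as more widely expressed. Tagln minus Tagln2 lies at 1.73 to 2.21, Cnn1 minus Cnn2 at -1.25 to -1.07, and replicate 1 lies apart for Myh11 minus Myh9.

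Genes that work beside the contractile proteins were read from 3 further lists. Proteins of the thin filament, dense bodies and adhesion plaques were higher for 18 of 32 tested and lower for 1, or 59.4% called against 53.9% of all genes, with a median of 0.54. Synpo, the actin-bundling synaptopodin, had a ratio of 3.12 ± 0.34 and the adhesion protein Tns1 had 2.42 ± 0.42. The scaffold Pdlim2 had 1.61 ± 0.32 and the actin-binding Ablim1 had 2.03 ± 0.24. Ablim1 was above background on only 3 vector-labelled channels, so it passed the filter through the RapCA-labelled channel alone. These 4 were called higher and lay above 0 on 4 of 4 arrays. With median centring 9 of 32 in this list were called, where 12.4% of all genes were called higher and 20.0% lower.

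Transcription factors and repressors of the contractile programme were higher for 4 of 24 tested and lower for 6, with a median of 0.039. That is 41.7% called, where 53.9% of all genes were, with 28.9% of all genes higher and 24.9% lower. Klf5, a factor linked to proliferating smooth muscle cells, was lower at -1.59 ± 0.13 (adjusted p = 5.08e-05). The Notch target Hes1 was higher at 2.19 ± 0.29, the TGF-beta mediator Smad3 at 1.41 ± 0.15 and the TEA domain factor Tead3 at 0.83 ± 0.31. Striated muscle sarcomere genes were read as markers of other muscle, and 21 of 39 were not tested, 16 of them above background on no array. Of the 18 tested, 5 were higher and 3 lower (44.4% called, against 53.9% of all genes), with a median of 0.0097. Actc1, the cardiac alpha actin, was higher at 0.97 ± 0.22, near the ratio of Acta1, while the troponins Tnnc2 and Tnnt2 were lower at -0.64 ± 0.064 and -0.70 ± 0.16. Troponins had no common direction, since Tnni3 and Tnni2, named here after their values were seen, were called higher at 0.70 ± 0.30 and 0.54 ± 0.35.

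**Figure D5:**
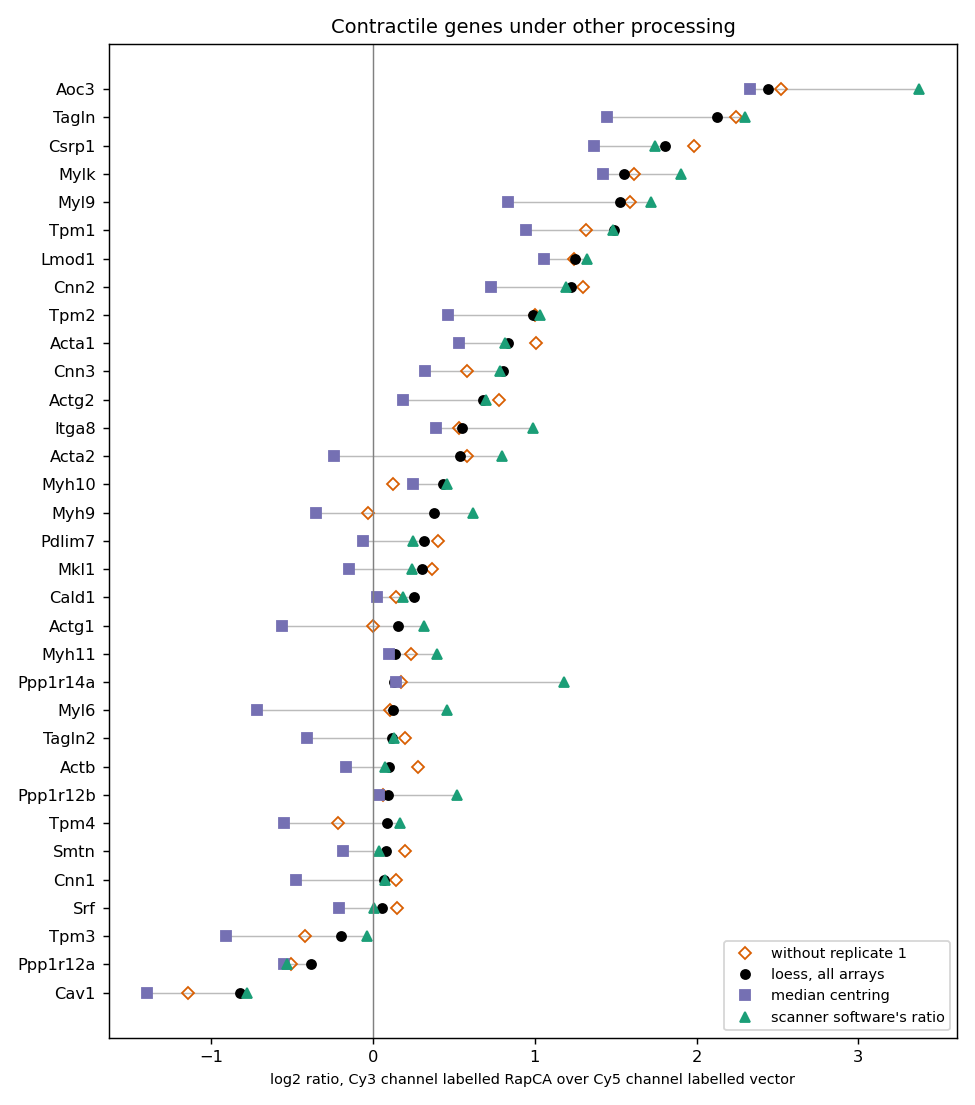
Mean log2 ratio (horizontal axis) of the brightest probe of 33 contractile genes (vertical axis) with the intensity-dependent fit on 4 arrays, without replicate 1, under median centring and from the scanner software. With median centring every gene but Ppp1r14a moves down; Aoc3, Tagln, Csrp1, Mylk, Myl9, Lmod1, Cnn2 and Acta1 stay above 0 and called in all 4.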

How the data were processed

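Each of 4 arrays held RNA of both groups, with the vector in Cy5 and RapCA in Cy3. Per the file headers, the authors scanned Agilent two-colour arrays and extracted spot intensity values with Feature Extraction 10.7.3.1 (10.9 in the submitters' processing notes). The deposited files also hold a log10 ratio per spot, and the deposited series table holds the same ratios within 5e-05. Median signals were background-corrected (normexp, offset 50), loess-normalized within arrays without control spots, freed of outlier spots and averaged per probe. Probes had to be well above background on 4 arrays in a channel and measured on at least 3. The array pairing is part of the design, since each ratio comes from a shared slide. limma 3.58.1 in R 4.3.3 tested the mean against 0, adjusted by Benjamini-Hochberg over 23497 probes, after tests on simulated data. The brightest tested probe stood for a gene. All members were named, with the 4 genes of lowest adjusted p in each other list eligible. A few further genes were named after their values were seen. A further list of genes is not reported here. Members and lists were chosen with earlier results of these data known. The number of arrays limits the precision. Alternatives covered the background offset, centring, scanner ratios, filters, weights, pairing, probe choice and each array left out.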

Additional observations from a re-analysis of the deposited data

Results flagged for a closer look

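For 7 of the 33 contractile genes tested, replicate 1 lay apart from the other 3 arrays by more than the critical value of Dixon's gap test. Chance alone flags about 1 in 20 genes, and all 7 flags fell on the array whose ratios correlated least with the rest. Replicate 1 was the high array for Myh9 (1.59, others -0.087 to 0.053), Myh10 (1.36, others 0.082 to 0.17), Cnn3 (1.46, others 0.56 to 0.61) and Tpm1 (2.03, others 1.30 to 1.32). It was also high for Cav1, at 0.15 where the others had -1.22 to -1.04. Lower values than on the other arrays stood there for Actg2 (0.39, others 0.76 to 0.80) and Csrp1 (1.27, others 1.96 to 2.00). The cause was not tested.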

How the results depend on the processing

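Of the 17 contractile genes called, 8 kept call and direction under every alternative run: Acta1, Myl9, Mylk, Cnn2, Tagln, Lmod1, Csrp1 and Aoc3. With median centring 8 contractile genes were higher and 2 lower with a median of 0.034, and 6546 of all probes were called (11656 in the main setting). The thin filament and striated lists had 9 and 5 calls (19 and 8). In that setting 12.4% of all genes were higher and 20.0% lower. There the ratio turned below 0 for Acta2 (-0.24), Actb (-0.17), Actg1 (-0.56), Myh9 (-0.36), Myl6 (-0.72), Cnn1 (-0.48), Tagln2 (-0.41), Tpm4 (-0.55), Smtn (-0.19), Pdlim7 (-0.060), Srf (-0.21) and Mkl1 (-0.15), and for Acta2 minus Actb (-0.077). Array weights gave 17692 probes, 22 contractile genes higher and 4 lower (40.3% and 37.3% of all genes), with Actg1 at -0.028 and Tpm4 at -0.20. The contractile genes called lower were 2 with an offset of 10, the scanner ratios, the series table or the mean over a gene's probes, and 0 with no filter on dim probes. Of all genes, 25% were lower with that offset, 23.8% with the scanner ratios or the series table and 17.3% with no filter. The contractile median was 0.52 with the scanner ratios (0.5193 in the series table), 0.16 with no filter and 0.46 with the mean over probes. With each array left out in turn, 7919 to 15741 probes were called, 14 to 19 contractile genes were higher and 0 to 3 lower, and the median was 0.28 to 0.41. The lists then had 16 to 26 (thin filament), 7 to 14 (regulators) and 5 to 12 (striated) calls. The top of each of these ranges of calls came without replicate 1, where 37.1% of all genes were called higher and 34.0% lower. With each array left out, the form placed as smooth muscle was ahead on every array left in 3 to 6 isoform pairs. Over the same 4 settings the ratio changed sign for Actg1 (-0.0014 to 0.27), Myh9 (-0.031 to 0.53) and Tpm4 (-0.22 to 0.22), each below 0 without replicate 1, and for Cnn1 (-0.015 to 0.14), below 0 without replicate 4. Without the replicate block, which ignores the array pairing, 10267 probes, 14 contractile genes higher and 1 lower were called. Of all genes 25.6% were higher and 21.6% lower there. Pdlim7 and Mkl1 were lost. The causes were not tested. Signal near background limits Myh11, Ppp1r12b, Ppp1r14a, Itga8, Aoc3 and the 6 genes not tested.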
